A study of Mus musculus with 7 samples.

Results

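Long intergenic noncoding RNAs (lincRNAs) were read in the livers of wild type (WT) and SHIVA mice by every array probe that is named for a genomic interval and a strand. The name holds a chromosome, a start and an end in the mouse build mm9, and closes with F for the forward or R for the reverse strand. Of the 55681 probes of the array that are not controls, 16181 carry such a name. They belong to 3540 intervals, of which 1067 have probes on both strands and 2473 on 1 strand, so that there are 4607 combinations of interval and strand (2318 forward and 2289 reverse). Each combination is called a lincRNA transcript here, although the probes show RNA at their own 60 bases and not where a transcript starts or ends. With the other 31876 gene names, the array reads 36483 names.

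Liver RNA came from 3 WT mice of strain C57BL/6 and 4 SHIVA mice on the same background, with 1 single-colour Agilent array per mouse and no pooling. All mice were females of 8 to 12 weeks, fasted for 24 h before the liver was taken. SHIVA mice descend from an ENU (N-ethyl-N-nitrosourea) mutagenesis and carry a substitution in the DNA binding domain of Sox17, a transcription factor that directs the formation of endoderm and vessels. The labels give no zygosity, while the study's supplementary methods describe the viable mutants as heterozygous. A germline mutation acts in every cell of the mouse, and whole liver mixes hepatocytes with vessel, bile duct and immune cells.

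A lincRNA is a transcript that codes for no known protein and lies between protein-coding genes. Some lincRNAs act where they are made, by changing the transcription or chromatin of a gene beside them, and others act elsewhere as scaffolds for proteins or as hosts of microRNAs. Most are less abundant than mRNAs and are made in fewer tissues. Many mouse lincRNA intervals were first catalogued from chromatin marks of active promoters and transcribed regions, which do not give the strand, and for such an interval an array can carry probes for both strands.

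The following probes carry the differences between WT and SHIVA livers described below, and each is the brightest probe of a transcript that passed the test. They are given from 5′ to 3′ as deposited, in lower case since no part of them is set apart.
chr8:41730287-41746862 reverse: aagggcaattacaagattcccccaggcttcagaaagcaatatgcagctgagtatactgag
chr13:108548345-108679004 forward: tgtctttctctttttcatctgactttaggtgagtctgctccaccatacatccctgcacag
chr8:26343277-26352902 forward: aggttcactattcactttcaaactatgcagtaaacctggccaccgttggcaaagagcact
chr6:122741562-122743423 reverse: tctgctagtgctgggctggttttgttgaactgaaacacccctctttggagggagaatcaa

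Another set shows what a strand-specific pair of probes looks like. Each pair lies at one site and its members are reverse complements over all 60 bases. The pairs shown are those with the largest signal among sites where one strand was well above background on all 7 arrays and the other on 0. There were 11 such sites with the forward strand detected and 14 with the reverse strand. The first pair lies at chr12:82501144-82501203 and the second at chr16:59597917-59597976.
chr12:82495575-82516300 forward: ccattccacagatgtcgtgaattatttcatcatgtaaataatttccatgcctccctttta
chr12:82495575-82516300 reverse: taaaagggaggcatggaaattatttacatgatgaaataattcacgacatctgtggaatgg
chr16:59557120-59602070 forward: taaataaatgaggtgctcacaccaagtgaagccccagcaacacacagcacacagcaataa
chr16:59557120-59602070 reverse: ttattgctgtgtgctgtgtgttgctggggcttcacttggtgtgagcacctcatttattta

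The last set shows why some interval names do not stand for an RNA of their own. These lincRNA probes have the same 60 bases as the probe of a named gene, and the capitals mark the bases that both share. Gsta1 codes for a glutathione transferase of the detoxification pathway, and Mir17hg is the host transcript of a microRNA cluster.
chr9:78107225-78118850 forward, shared with Gsta1: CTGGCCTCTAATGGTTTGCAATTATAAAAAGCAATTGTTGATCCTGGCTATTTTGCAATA
chr14:115443612-115445950 forward, shared with Mir17hg: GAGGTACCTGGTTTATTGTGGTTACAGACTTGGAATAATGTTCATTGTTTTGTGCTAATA

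The array reads the lincRNA transcripts with 1 to 10 probes each (median 3), and 690 of them rest on 1 probe. Their intervals measure between 62 and 7128487 bases (median 7315.5 over intervals). The files give a position for 16063 of the probes, and all of these lie inside their interval and read the strand of the name. Chromosome 1 holds the most intervals (269) and chromosome 19 the fewest (75). Not all of them were free of other gene names: 913 transcripts, or 19.8%, had a probe of another gene name inside their interval on the same strand. On either strand, 1379 had one. These names include noncoding ones such as Mir17hg, so the count does not show overlap with protein-coding genes. The motif AATAAA, the most common signal for the end of a transcript, was found in 3.92% of lincRNA probes and in 12.6% of all other probes, and its reverse complement TTTATT in 3.02% and 4.03%. A further 70 lincRNA probes have a name without an interval and strand and were not counted as members.

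Detection was read from the scanner's own call that a spot is well above background. In WT livers, 25.3%, 24.8% and 26.9% of the lincRNA probes were well above background, and in SHIVA livers 26.6%, 29.5%, 26.9% and 26.5%. The ranges of the genotypes overlapped, and SHIVA replicate 2 was the highest. It was also the highest for the other probes. Among all other probes, 52.5% to 54.2% were well above background in WT and 53.7% to 56.6% in SHIVA livers. In each of the 7 livers, single lincRNA probes were detected less often than other probes.

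**Figure D1:**
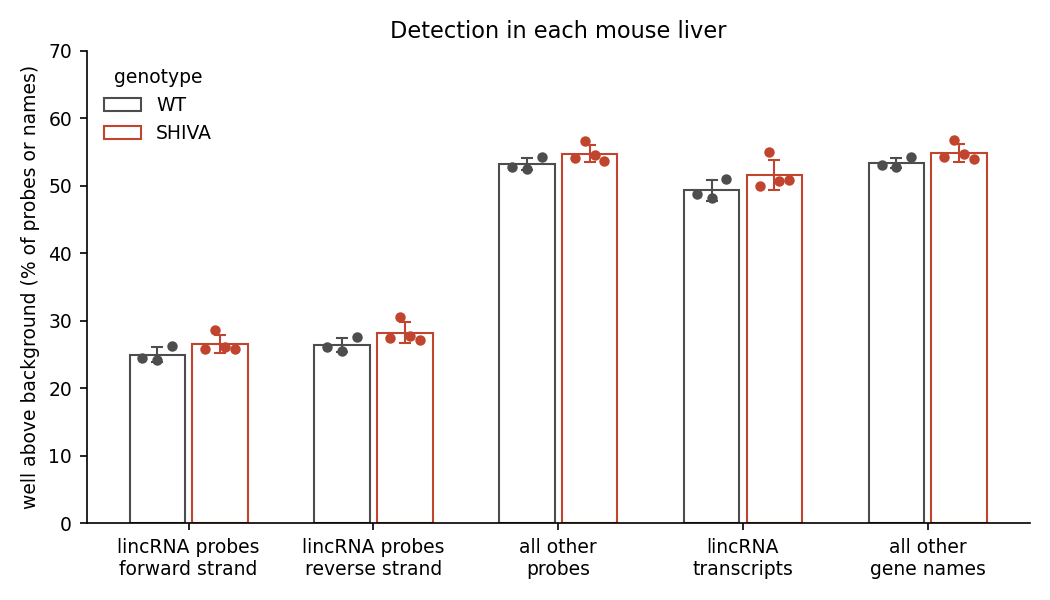
Share of probes or names well above background (y axis, percent) in each liver. Points are mice, bars are group means and error bars are SDs (3 WT, 4 SHIVA). LincRNA probes of either strand stay between 24.1% and 30.5%, below every value of the other probes, while whole transcripts read by their brightest probe reach 48.1% to 54.9%.

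The gap was smaller when each transcript was read by its brightest probe. In WT livers 49.3% ± 1.53 (SD, n = 3) of the transcripts were well above background, and 51.6% ± 2.26 (SD, n = 4) in SHIVA livers. Over the 7 arrays, 2402 of 4607 transcripts (52.1%) were detected on at least 3 arrays, beside 55.2% of other gene names. On all 7 arrays the shares were 41.5% and 49.0%, and 1695 transcripts were detected on no array. The share depended on how many probes a transcript has, because the brightest of several was taken. It was 29.7% for transcripts with 1 probe, 48.1% for those with 3 and 81.5% for those with 6 to 10, while the share of single probes stayed between 25.9% and 31.0%.

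Base composition moved with detection as well. Of the lincRNA probes with a GC content under 35%, 7.01% were detected on at least 3 arrays, and of those at 50% or more, 52.2%. The other probes went from 31.5% to 70.3% over the same classes. LincRNA probes had no lower GC content than other probes, with medians of 45% and 41.7%. By chromosome, the detected share of transcripts ranged from 41.6% on the X chromosome and 42.9% on chromosome 10 to 67.4% on chromosome 11.

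Strand was compared in the 1067 intervals with probes on both strands. Only the forward transcript was detected on at least 3 arrays in 212 intervals, only the reverse one in 239, both in 434 and neither in 182. Forward and reverse transcripts were thus detected alone in like numbers, and both together more often than either. The 2 transcripts of an interval are mostly read at different places, so detection of both does not show that the same bases are transcribed on both strands.

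The 101 sites with complementary probes read the same bases on both strands. At these, only the forward probe was detected on at least 3 arrays at 18 sites, only the reverse one at 22, both at 6 and neither at 55. At the site shown on chromosome 12, the forward probe had log2 signals of 10.57, 10.18 and 9.87 in WT and 10.12, 10.45, 10.17 and 10.33 in SHIVA livers, while the reverse probe lay between 1.45 and 1.89 in all 7. At the site shown on chromosome 16 the reverse probe lay between 6.81 and 7.44 in all livers and the forward probe between 1.14 and 3.37.

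**Figure D2:**
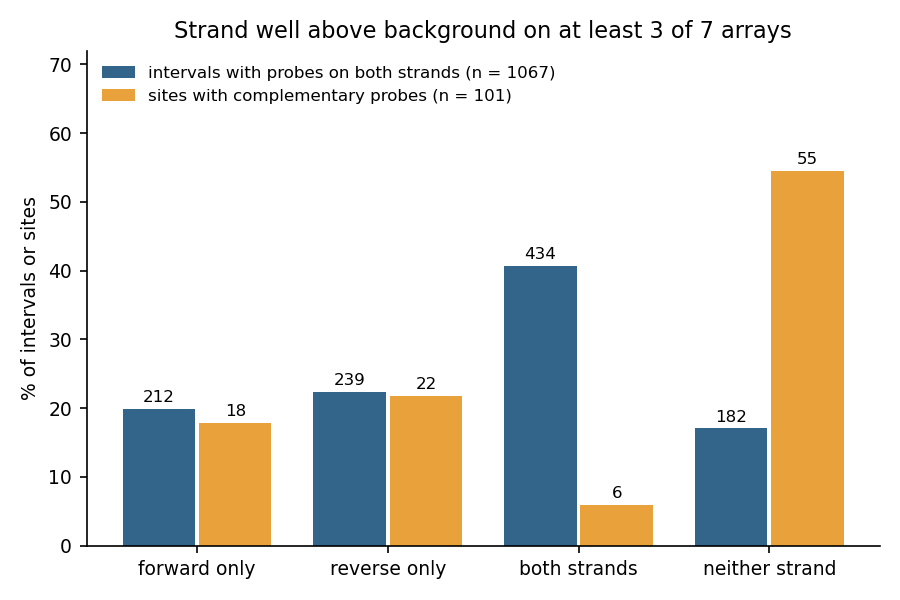
Strand detected on at least 3 of 7 arrays, as the percent (y axis) of the 1067 intervals with probes on both strands and of the 101 sites with complementary probes. Numbers above the bars are counts: both strands were detected in 434 intervals but at 6 complementary sites.

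The differences between genotypes were read from the log2 signals of the brightest probe, quantile normalized over the 7 arrays. The 2402 transcripts detected on at least 3 arrays were tested together with the other genes by limma, in all 19995 names, and adjusted by Benjamini-Hochberg over all of them. The remaining 2205 transcripts were not tested. Of the 2402, 4 passed an adjusted p of 0.05, 2 of them higher and 2 lower in SHIVA livers. That is 0.167% of the lincRNA transcripts, beside 0.375% of all names tested (75 in all, 0.185% higher and 0.19% lower). Both of the higher ones were above background in 0 WT livers and entered the test through their SHIVA arrays alone. With at least 2 arrays of each genotype above background, a filter chosen after seeing the data, 1 passed and 0 of the higher ones. Over all names 37 of 18917 passed there. Under the main filter of 3 arrays, the number of lincRNA transcripts that passed was 0 when WT replicate 1, WT replicate 2 or SHIVA replicate 1 was left out, 1 without SHIVA replicate 3, 2 without SHIVA replicate 4 and 30 without WT replicate 3. Over all names, 3, 8, 7, 13, 57 and 416 passed in these fits, in the same order. At an unadjusted p under 0.05 there were 267 transcripts, or 11.1%, beside 13.3% of all names. In 229 transcripts no SHIVA value overlapped with a WT value, which makes 9.53% beside 12.2% of all names. Of these, 95 were higher in SHIVA livers (3.96%, beside 6.14% of all names) and 134 lower (5.58%, beside 6.02%).

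The transcript chr8:41730287-41746862 reverse rose in SHIVA livers. Its log2 signal was 2.60, 2.36 and 2.81 in WT and 4.89, 4.31, 4.11 and 4.40 in SHIVA livers. It was well above background on 0 of 3 WT arrays and on 4 of 4 SHIVA arrays, with no overlap, so its change was at least 1.93-fold against the lowest detectable signal of the WT arrays. Its limma adjusted p was 0.0206. It entered the test through its SHIVA arrays alone, with WT values below detection, and was not tested where at least 2 arrays of each genotype had to be above background. All 5 of its probes, which lie within chr8:41736134-41736701, had a positive difference (1.01 to 2.80), and 3 of them were detected on at least 3 arrays. On the mean spot signal without background correction the difference was 0.50 (limma adjusted p = 0.0992). The forward transcript of the interval was 0.90 higher with an adjusted p of 0.505, and Gm2085, a gene name with its probe inside the interval on the opposite strand, differed by -0.04 (limma adjusted p = 0.989).

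The transcript chr8:26343277-26352902 forward also rose. Its log2 signal was 2.66, 2.86 and 2.91 in WT livers, none of them well above background, and 4.26, 3.72, 4.45 and 4.00 in SHIVA livers, all of them above. Against the lowest detectable signal of the WT arrays, the change was at least 1.55-fold (limma adjusted p = 0.0423). It too was tested through its SHIVA arrays alone, and not under the filter on both genotypes. Its 5 probes all pointed up, from 0.28 to 1.30, but only 2 of them were detected. Besides the brightest at 1.30, the detected probe was the one at 0.28 (limma adjusted p = 0.742 when tested singly). The rest were above background on no array. The mean of all probes differed by 0.83 (limma adjusted p = 0.206). Without background correction the brightest probe differed by 0.35 (limma adjusted p = 0.212). The opposite strand, detected on all 7 arrays, differed by 0.04. The nearest gene tested was Tacc1, which codes for a protein of the spindle and centrosome, at 78124 bases on the opposite strand, with a log2 difference of -0.32 (limma adjusted p = 0.604).

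The transcript chr6:122741562-122743423 reverse fell, and of the 4 it was the only one with every probe detected on at least 3 arrays. Its log2 signal was 11.87, 12.13 and 11.78 in WT and 10.80, 11.09, 10.64 and 10.64 in SHIVA livers, without overlap. It was 2.19-fold lower in SHIVA livers (log2 difference -1.13, SE 0.17, limma adjusted p = 0.0423). All 3 probes were detected on all 7 arrays and gave -1.13, -1.17 and -1.08. The array has no probe for its forward strand. The nearest gene name tested, LOC100048377, lay 27544 bases away on the same strand and differed by -0.22 (limma adjusted p = 0.741).

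The transcript chr13:108548345-108679004 forward fell by 1.44 on the log2 scale (SE 0.20, limma adjusted p = 0.0299). The signal was 5.49, 5.55 and 5.42 in WT and 3.81, 3.95, 3.88 and 4.56 in SHIVA livers, above background in all 7 and without overlap. The difference rested on 1 of its 10 probes. The other 9, spread over 2 places of the interval, were above background on 0 arrays and lay between -0.20 and 0.06. The mean of all 10 differed by -0.19 (limma adjusted p = 0.550). The reverse transcript, detected on all 7 arrays, differed by 0.09, and Zswim6, a zinc finger gene 31711 bases away, by 0.11 (limma adjusted p = 0.835).

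**Figure D3:**
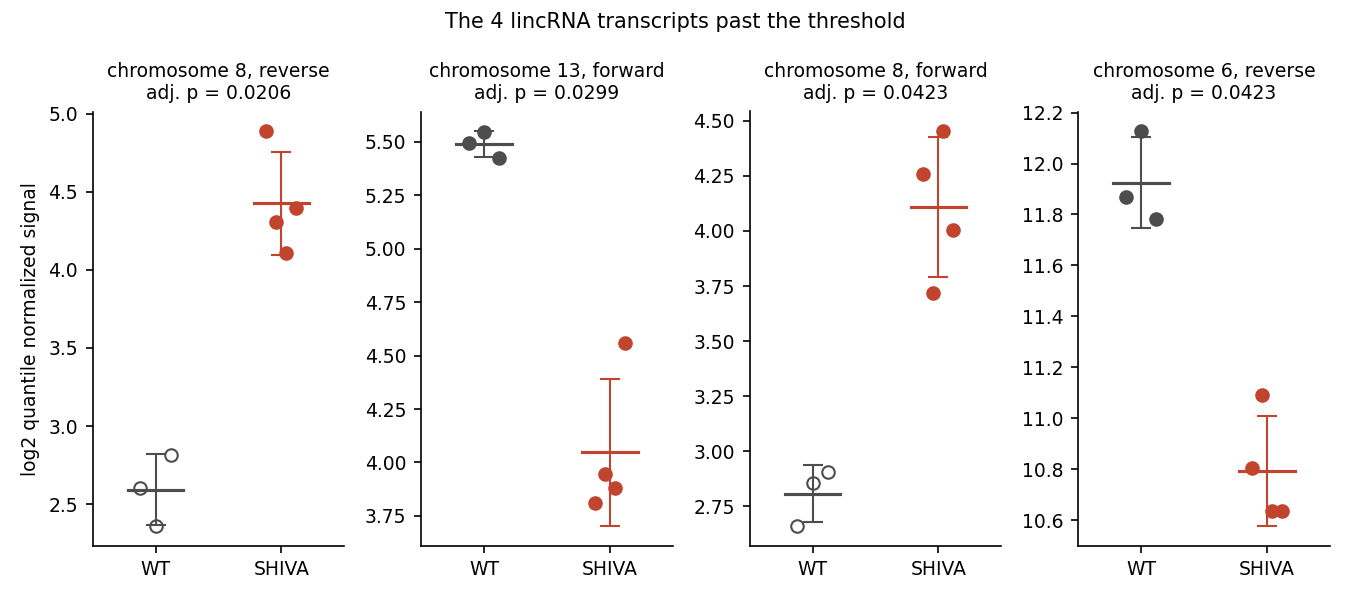
Log2 quantile normalized signal (y axis, a separate scale for each panel) of the 4 lincRNA transcripts with a limma adjusted p under 0.05. Points are mice, lines are means and error bars are SDs (3 WT, 4 SHIVA), with open points where the spot was not well above background. The genotypes do not overlap in any of the 4, and in the 2 on chromosome 8 no WT array is above background.

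Of the markers of liver cell types, 0 passed the limma threshold. Levels here are means over the markers of a list in each mouse, given as the range between mice. The 10 hepatocyte markers were well above background on all 7 arrays, at mean log2 levels of 16.3 to 16.5 in WT and 16.2 to 16.4 in SHIVA mice, among the brightest signals of the arrays, and the share of hepatocytes in the tissue was not measured. The 6 macrophage markers were all higher in SHIVA livers (median 0.41), with a mean log2 level of 9.68 to 10.9 in WT and 10.3 to 11.2 in SHIVA mice. Of the 5 neutrophil markers 4 were higher (median 1.04), with mean levels of 6.18 to 7.42 and 6.04 to 8.61. Of the 3 biliary markers tested 1 was higher (median -0.73), and the 4 on the array had mean levels of 4.22 to 5.70 and 3.84 to 4.89. The 6 endothelial markers had a median of 0.01 (3 higher) and the 4 stellate markers a median of -0.02 (1 higher). Of 5 T and B cell markers tested 3 were higher (median 0.14), and of 2 erythroid markers 2 (median 0.53). Of 2 pancreas acinar markers tested 2 were higher (median 0.57), and 0 adipocyte markers were tested. The part of these cells in the lincRNA differences was not tested, and in whole liver, fewer cells of a type and less RNA per cell cannot be told apart.

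Several transcripts had larger differences that did not pass the test. The largest without overlap was that of chr9:78107225-78118850 forward, with log2 signals of 7.55, 5.92 and 6.21 in WT and 8.70, 8.47, 9.31 and 9.20 in SHIVA livers (difference 2.36, SE 0.39, limma adjusted p = 0.056). It is read by 5 probes, of which 2 adjoining ones were detected. One of them is the probe shown with the sequence of Gsta1, placed at chr9:78116894-78116953 in the name of the interval and at chr9:78090411-78090470 in the name of Gsta1. It gave a difference of 2.37, and the Gsta1 spot, which passed the test, gave 2.42 (SE 0.33, limma adjusted p = 0.0299). The 3 other probes of the interval, all further downstream, were detected on 0 arrays and lay between -0.21 and 0.03. The signal of this transcript can therefore not be told apart from that of Gsta1 or of a near-identical copy.

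The transcript chr1:138528250-138538250 forward had log2 signals of 3.64, 4.05 and 5.19 in WT and 6.43, 6.66, 6.40 and 6.03 in SHIVA livers. All SHIVA values were above all WT values (difference 2.09, SE 0.34, limma adjusted p = 0.0543). Of its 10 probes 7 were detected, and their differences lay between 1.43 and 2.26. The nearest gene on the same strand was Zfp281, a zinc finger transcription factor gene 3600 bases away, with a log2 difference of 0.56 (limma adjusted p = 0.145). The reverse transcript of the interval differed by -0.25.

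On chromosome 2, chr2:94008913-94019798 reverse had log2 signals of 1.96, 2.17 and 3.51 in WT and 4.98, 4.62, 4.46 and 4.26 in SHIVA livers (difference 2.03, limma adjusted p = 0.0705). It was well above background on 1 WT array and all 4 SHIVA arrays, and its 3 detected probes gave 1.79 to 2.28. On chromosome 16, chr16:23992037-24001037 forward had log2 signals of 3.33, 3.90 and 5.99 in WT and 6.31, 7.04, 6.01 and 6.27 in SHIVA livers (difference 2.00, limma adjusted p = 0.206). WT replicate 3 lay just under the lowest SHIVA mouse in this transcript and was the highest WT mouse in both. The 6 detected probes of the second gave 0.72 to 2.36. The nearest gene was Bcl6, a transcriptional repressor gene that also takes part in hepatic lipid metabolism, 26818 bases away on the opposite strand, with a log2 difference of 0.19 (limma adjusted p = 0.867).

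**Figure D4:**
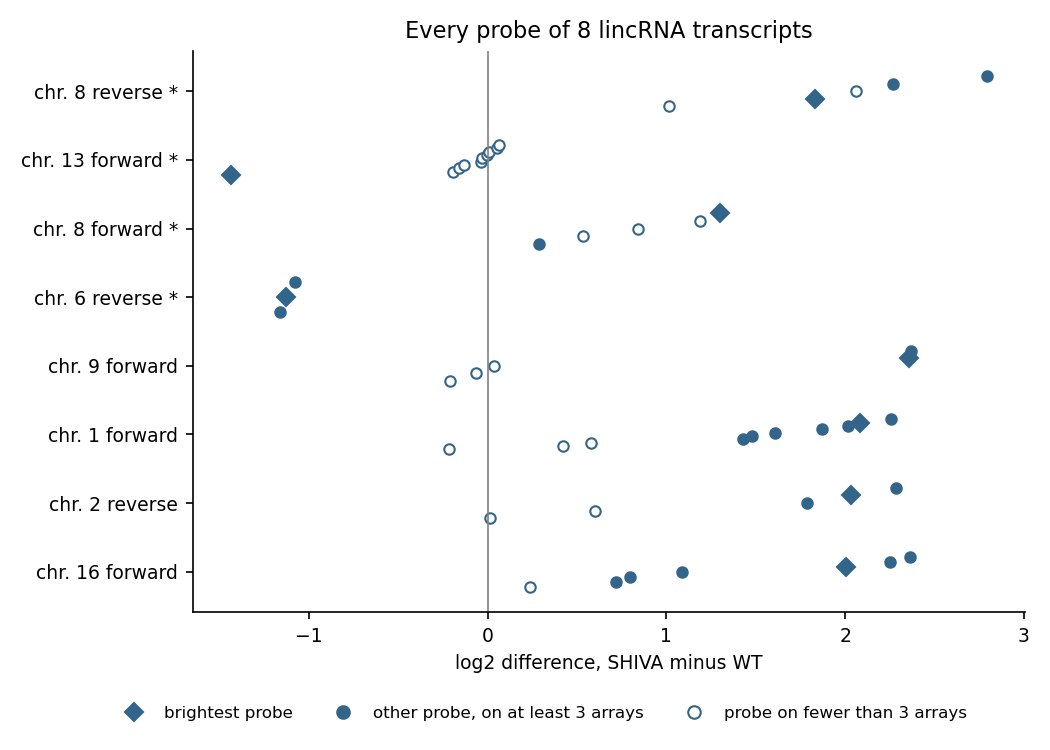
Log2 difference between SHIVA and WT means (x axis) for every probe of the 4 transcripts past the threshold (stars) and of the 4 with the next largest positive differences without overlap. Diamonds are the brightest probe, filled points were detected on at least 3 of 7 arrays and open points on fewer. The 3 probes of the chromosome 6 transcript lie together, while the chromosome 13 transcript rests on 1 probe at -1.44.

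The remaining named transcripts without overlap did not pass the test. Higher in SHIVA livers were chr2:84344350-84370075 reverse (7.88, 8.02 and 8.59 in WT against 9.20, 8.91, 9.64 and 9.69) and chr6:57583950-57624216 forward (5.57, 5.56 and 6.54 against 7.11, 7.12, 7.25 and 6.76). Their log2 differences were 1.20 and 1.17. In the first, the other detected probes gave 0.33 and 0.08 and the mean of all probes 0.44. Both probes of the second were detected and gave 0.92 and 1.17, and Herc6, an interferon-induced ubiquitin ligase gene 15283 bases from the second on the same strand, differed by 0.44 (limma adjusted p = 0.521). Also higher were chr14:28218945-28241903 reverse, at 1.22 and near Arhgef3, and chr2:143991240-143991597 forward, above background in no WT liver and at least 1.47-fold higher (limma adjusted p = 0.250). Both were detected on at least 3 arrays by only 1 of 3 probes. The other probes gave 0.27 and 0.65 in the first, and 0.38 and 0.51 in the second.

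Lower in SHIVA livers was chr4:135896689-135918414 reverse, with log2 signals of 6.49, 6.80 and 6.10 in WT and 5.37, 5.17, 4.68 and 5.26 in SHIVA livers (difference -1.34, limma adjusted p = 0.0587). It was detected by 2 of 10 probes, of which the second gave a difference of 0.14, and the mean of all probes was -0.09 (limma adjusted p = 0.826). The transcript chr2:33496712-33501183 forward, 1642 bases from Lmx1b, was above background in all 3 WT and in no SHIVA liver (4.11, 4.53 and 3.93 against 2.52, 1.29, 2.29 and 3.44, at least 1.85-fold lower, limma adjusted p = 0.146). This rested on 1 of its 3 probes. The others differed by -0.10 and 0.17, and the mean of all probes by -0.58 (limma adjusted p = 0.312). The transcript chr6:67052066-67119366 reverse had 7.40, 7.64 and 5.93 in WT and 5.59, 5.50, 5.39 and 5.30 in SHIVA livers, and of its 4 probes only the brightest had a negative difference (-1.54). The 5 others were chr8:49866197-49866841 reverse, chr4:131738732-131739264 forward, chr18:84757475-84757969 reverse, chr15:5969454-5994540 reverse and chr3:145270309-145270779 forward, with log2 differences of -1.71, -1.25, -1.17, -1.01 and -0.91. Each of these 5 was detected on at least 3 arrays by 1 of its several probes.

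Some transcripts were detected in livers of one genotype alone. In 12 transcripts every array of one genotype was well above background and no array of the other was, 10 of them detected in SHIVA and 2 in WT livers. Of all 19995 names tested, 50 (0.25%) were detected in this way in SHIVA and 15 (0.075%) in WT livers, and SHIVA arrays also had more of the probes outside the lincRNA set above background (a mean of 54.7% against 53.2%). These values lie close to the lowest detectable signal, which was 3.39 to 3.54 in WT and 3.12 to 3.48 in SHIVA arrays. The 10 with the largest fold bound are named here. Besides those above, chr2:119697845-119719245 forward had 3.68, 3.50 and 3.70 in WT and 4.96, 4.10, 5.75 and 4.01 in SHIVA livers, at least 2.09-fold higher (limma adjusted p = 0.285). The others were chr9:24292762-24307658 reverse, chr11:18479852-18485704 reverse, chr4:90877414-90917198 reverse and chrX:165792277-165807952 reverse, with fold bounds of 1.64, 1.61, 1.47 and 1.32 higher, and chr18:23922600-23937275 reverse, with 1.41 lower. Their limma adjusted p-values lay at 0.141 or above. In the chrX transcript the genotypes overlapped (3.99 in WT replicate 2 and 3.92 in SHIVA replicate 3). The bounds hold for the processed signal only. Without background correction these transcripts had log2 differences of 0.29, 0.29, 0.17, 0.20 and -0.20, smaller than their bounds. Among them, and with chr2:119697845-119719245 forward, only chr11:18479852-18485704 reverse was detected on at least 3 arrays by more than 1 probe.

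Over all 2402 transcripts tested, the median log2 difference was -0.08, beside -0.01 for all names and 0.00 for the other genes. A positive difference was found in 963 of the 2402 lincRNA transcripts (40.1%) and in 8800 of the 17593 other genes. The shift was of like size on both strands (-0.07 forward, -0.08 reverse). It was not the same in every mouse: the median of the lincRNA transcripts relative to the WT mean was -0.11, -0.11 and -0.09 in SHIVA replicates 1 to 3 and 0.07 in SHIVA replicate 4, while the WT mice had -0.01, 0.05 and -0.02. The shift was smaller than the SD between the SHIVA mice (0.089). By mean signal, transcripts under a log2 value of 4 had a median of 0.02 and those from 4 to 6, from 6 to 8 and from 8 on -0.07, -0.09 and -0.09, where the other genes had 0.06, -0.01, -0.01 and 0.00.

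The probes of one transcript did not always give the same answer. Of the 2197 tested transcripts with more than 1 probe, 1126 (51.3%) had only 1 probe detected on at least 3 arrays, and 312 (14.2%) had every probe detected. In the 1072 with 2 or more detected probes, all of these had the same sign in 595 (55.5%). Across 1071 transcripts, the difference of the brightest probe and the mean of its other detected probes had a Pearson r of 0.504, as a description over probes of shared arrays. With each probe tested singly, 5 of 4485 lincRNA probes passed the limma threshold (61 of 26258 probes in all). They belong to 3 of the 4 transcripts above, all but chr8:26343277-26352902 forward, to chr1:138528250-138538250 forward, and to chr7:50509139-50526856 reverse, which was picked after its value was seen (log2 difference -1.03, SE 0.15, limma adjusted p = 0.0449).

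In the 434 intervals tested on both strands, the differences of the forward and the reverse transcript had a Pearson r of 0.0451 and a Spearman rho of 0.0782, and shared their sign in 247. In the 26 transcripts singled out here, 17 had the opposite strand on the array and 11 of these were tested, none with a difference that passed.

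Since some lincRNAs act on genes beside them, each tested transcript was set beside the nearest tested gene by probe position. A gene lay within 100 kb of 2082 transcripts. On the same strand (1142 pairs) the differences of transcript and gene had a Pearson r of 0.184, and of 0.145 without the pairs that share a probe sequence. On the opposite strand (940 pairs) r was 0.0314. The pairs share the same 7 arrays and several transcripts can share a gene, so r is a description of these livers. Of the 26 transcripts singled out, the nearest gene passed the test in 1, which was Gsta1.

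Shared sequences show how closely a probe repeats on the same array. Of the lincRNA probes, 76 have the same 60 bases as a probe of another gene name, and both spots of 31 pairs were tested. Their differences had a Pearson r of 0.952 (0.885 over 30 pairs without Gsta1), with a median gap of 0.08 and a largest gap of 0.45. The Mir17hg pair gave a log2 difference of 0.76 on both spots. The interval's spot read 6.38, 5.58 and 5.92 in WT and 6.81, 6.99, 6.53 and 6.53 in SHIVA livers, without overlap (limma adjusted p of Mir17hg = 0.220). The pair of Dleu2, a noncoding host transcript of another microRNA cluster, gave 0.50 and 0.54. Pvt1 and Dancr, both hosts of small RNAs, gave 0.04 and 0.32 in the name of the interval and 0.01 and 0.55 in their own.

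**Figure D5:**
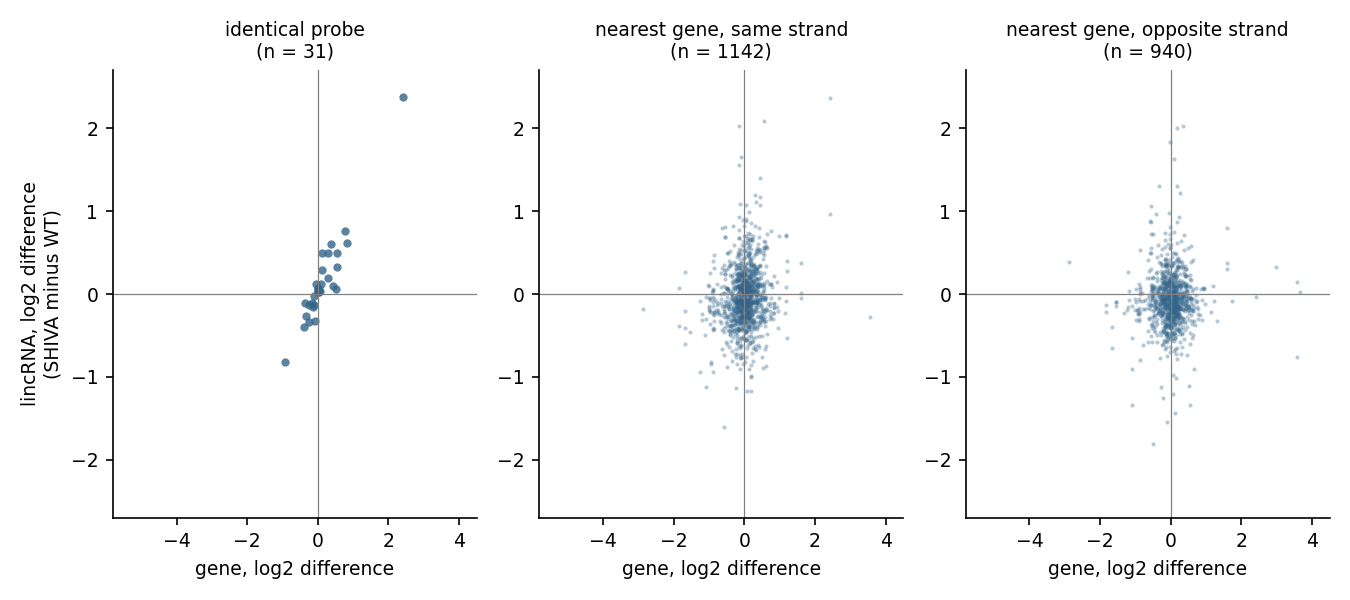
Log2 difference between SHIVA and WT means of lincRNA probes or transcripts (y axis) against that of a gene (x axis). Points are pairs: the same 60 bases under both names (31 pairs, r 0.952), the nearest gene within 100 kb on the same strand (1142 pairs, r 0.184) and on the opposite strand (940 pairs, r 0.0314).

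Noncoding genes that have names of their own were read beside the intervals. Of 35 listed, 27 had a probe and 26 were tested, 13 with a higher and 13 with a lower value in SHIVA livers. The one that passed was Meg3, an imprinted noncoding RNA of the Dlk1 locus, which fell from 8.20, 7.74 and 7.56 in WT to 5.90, 6.38, 6.46 and 5.89 in SHIVA livers (log2 difference -1.67, SE 0.22, limma adjusted p = 0.0268). Its adjusted p stayed under 0.05 without WT replicate 3 or SHIVA replicate 2, and reached 0.131 when WT replicate 2 was left out. The largest positive value was that of H19, an imprinted noncoding RNA of the Igf2 locus, with 4.30, 3.84 and 5.85 in WT and 5.76, 7.41, 6.79 and 6.73 in SHIVA livers (difference 2.01, limma adjusted p = 0.174). These groups overlapped. Malat1, an abundant RNA of nuclear speckles, differed by -1.15 and varied from 5.67 to 8.24 among the WT mice (limma adjusted p = 0.436). Neat1, the RNA of paraspeckles, differed by 0.19, and Xist, which coats the inactive X chromosome, by 0.16.

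The genotype labels could not be checked on Sox17 itself, since its mutation is a base substitution that the probe does not read. The Sox17 probe at chr1:4481503-4481562 had a log2 difference of 0.69 (limma adjusted p = 0.280). Elovl3, a fatty acid elongase gene, was well above background in 3 WT and 0 SHIVA livers, at least 12.6-fold lower in SHIVA livers (limma adjusted p = 0.000606). A single slide held the arrays, with WT livers in its row 1 and SHIVA livers in its row 2, and slide row and genotype cannot be told apart. In the part of chromosome 1 to which the SHIVA trait was mapped there were 18 lincRNA transcripts. Of these 4 were tested and 0 passed by limma, 0 also at an unadjusted p under 0.05, with differences of -0.13 to 0.41. Over all names tested, 0.375% passed and 13.3% had an unadjusted p under 0.05. With 4 transcripts tested, these counts cannot show whether the mapped part differs from the rest.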

How the data were processed

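Liver RNA of 3 WT and 4 SHIVA mice was hybridized to 1 array per mouse. The authors deposited the scanner intensities (Feature Extraction 10.5.1.1, spatial and multiplicative detrending, no local background subtraction) and a table of quantile normalized log2 values, which on every array ranks spots as the mean signal does. Here, control spots and spots marked as uneven or deviant (120 to 163 per array) were left out, and processed intensities were quantile normalized in R 4.3.3 and taken to log2. Spots of a probe were averaged. A gene or lincRNA transcript was read by its brightest probe (highest mean over the arrays) and tested with limma 3.58.1 (lmFit and eBayes) when well above background on at least 3 arrays. Names of 26527 probes were updated by accession with RefSeq for GRCm38.p6, and positions are those of mm9 in the files. Differences are SHIVA minus WT. Where no array of a genotype was above background, the fold was bounded by setting each of its arrays to the lowest signal well above background there or, if higher, to the probe's own value. Such a bound holds for the processed signal only. In the lincRNA transcripts named with a bound, the difference without background correction was smaller than the bound. 1 slide holds all arrays, and their number limits the precision. On simulated data with 19995 names, 85 of 100 differences of 2 and 41 of 100 differences of 1 (log2) were called, with 10 false calls.

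Named transcripts are those called, the 10 highest and 10 lowest differences without overlap, and the 10 with the largest fold bound among those detected in every liver of one genotype and none of the other. The members and lists were chosen with earlier results of these data known. Alternatives were other scalings, background corrections, filters, probe summaries, array weights, a replicate block, leaving out each mouse, and the methods' t-test. A filter on at least 2 arrays of each genotype was added after seeing the data. No RNA of known level was used as a check of the scale, so signals of different probes are not compared.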

Additional observations from a re-analysis of the deposited data

Results flagged for a closer look

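Of 30 sets of 4 SHIVA values searched (the 26 named transcripts and 4 shares of detected lincRNA probes or transcripts), 2 held a mouse far from the others, and chance gives about 1 in 20 such sets, here 1.5. SHIVA replicate 2 had 29.5% of lincRNA probes well above background, where the other SHIVA mice had 26.5% to 26.9%. For forward probes alone it had 28.6%, where the others had 25.8% to 26.2%. The forward probes are part of the first set, so the 2 are 1 pattern. The same mouse had 56.6% of all other probes well above background, where the other SHIVA mice had 53.7% to 54.6%.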

How the results depend on the processing

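The count of 4 lincRNA transcripts depended on the processing, as did the count of 75 over all names. By limma the lincRNA count was 2 with the mean of all probes (68 over all names) and 18 with array weights (238 over all names). It was 1 with a filter on 2 arrays of each genotype, chosen after seeing the data (37 of 18917 names). With no filter it was 0 (13 of 36483 names), with 412 lincRNA transcripts at an unadjusted p under 0.05. The methods' t-test gave 0 after Benjamini-Hochberg, and 0 over all names (221 lincRNA transcripts at an unadjusted p under 0.05). The other scalings, background corrections, single probes and a filter on all 7 arrays gave 3 to 6 (61 to 143 over all names or probes), but not always the same transcripts. All 4 passed again when arrays were scaled to the 75th percentile. Only 2 of them did on the mean signal without background correction and 2 in the authors' table. With the filter on all 7 arrays 2 passed, and the 2 on chromosome 8, detected on 4 arrays, were not tested. With another background correction (normexp), 1 of the 4 passed. Leaving out 1 mouse gave 0 to 30: 30 without WT replicate 3, 0 without WT replicate 1, WT replicate 2 or SHIVA replicate 1, 3 without SHIVA replicate 2, 1 without SHIVA replicate 3 and 2 without SHIVA replicate 4. Over all names the count moved as well, from 3 without WT replicate 1 to 416 without WT replicate 3. The replicate block, in which SHIVA replicate 4 has no WT partner and does not enter the difference, gave 3 (32 over all names), of which 1 was among the 4. The numbers share no animal, and same-numbered mice had correlations of -0.049, 0.0129 and 0.236. The call of chr8:41730287-41746862 reverse was kept in 4 of 7 fits that left out a mouse, and each of the other 3 calls in 2 of 7. All 429 values of the 26 named transcripts under alternatives kept their direction, which was largely fixed in advance. The transcripts were picked for their differences in these same data, and the other filters and the single probes reuse the same values. Where the genotypes do not overlap, leaving out a mouse cannot reverse the sign. Over all alternatives the median difference stayed between -0.11 and -0.03. For transcripts read by their brightest probe, the detected share was 49.3% in WT and 51.6% in SHIVA livers. It was 76.5% and 77.1% with the software's weaker flag (positive and significant). For single probes it was 25.7% and 27.4%, and 52.8% and 53.6% with the weaker flag. With that flag, 103 intervals were forward only, 112 reverse only, 806 both and 46 neither. Neither strand was detected in 286 intervals when all 7 arrays were asked for, and in 113 when 1 was. On the opposite strand, r with the nearest gene was -0.0247 within 10 kb. The cause of these shifts was not tested. Signals near background limit the 2 transcripts on chromosome 8 and those detected in one genotype only.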
